A study of Rattus norvegicus with 14 samples.

Results

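The multidrug ABC exporters are membrane pumps that use ATP to move drugs, bile constituents and conjugated metabolites out of cells. The 9 genes described here are Abcb1a, Abcb1b and Abcb4 of the ABCB subfamily, Abcc1, Abcc2, Abcc3, Abcc4 and Abcc6 of the ABCC subfamily, and Abcg2 of the ABCG subfamily. They were chosen by name among 14497 genes that had a probe set carrying a single gene symbol, and all 9 were measured. Of the other genes of the ABC superfamily, 34 were measured on the same arrays. Where a gene had several such probe sets, as Abcc4 did with 3, the one with the highest mean was used.

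RNA came from the livers of 12 male F344 rats, an inbred strain, in 4 groups of 3 animals, and was read on Affymetrix Rat Gene ST 1.0 arrays. The group called SF Rapamycin had the Solt-Farber (SF) protocol of chemical liver carcinogenesis. These rats received diethylnitrosamine, a DNA-alkylating carcinogen, at 200 mg/kg on day 1. On day 14 they were implanted with 2.5 mg of 2-acetylaminofluorene (AAF), an arylamide carcinogen under which hepatocytes stop dividing, in a pellet that released it over 14 days. Partial hepatectomy on day 21 was combined with a 21-day pellet that delivered 2.5 mg/kg of rapamycin, an inhibitor of the growth kinase mTOR, per day. SF Placebo rats were treated in the same way with a placebo pellet. From both groups, persistent lesions that stained for the placental glutathione S-transferase GSTP were cut out by laser on day 70, so the foci were selected on this enzyme. AAF/PH rats carried a 2.5 mg AAF pellet with 14-day release from day 1, had partial hepatectomy (PH) on day 7 and were killed on day 14. The labels name oval cells, the progenitor cells that proliferate under this protocol, as the feature of that tissue. Normal liver came from unmanipulated adult rats. Both SF groups share every carcinogen dose and the hepatectomy, and all groups share fixation in formalin, embedding in paraffin and laser capture. Each replicate number is a separate animal, but no label states that captures held a single cell type. In such tissue, fewer cells of a type and less RNA per cell cannot be told apart.

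The arrays of SF Rapamycin animal 3 stood apart from the other arrays. This animal was run on 3 arrays, a pair from the same RNA and another from a second laser capture, and they were averaged here to 1 value. The interquartile range of log2 intensity was 1.57 to 1.71 on these arrays, against 1.98 to 2.80 on the other arrays. Over the 4814 genes at least as bright as the dimmest exporter other than Abcg2, this animal had the lowest value of its group in 89.3%. Over all 14497 genes it was the lowest in 45.8%, or 6637, and the highest in 6641. It was the lowest of its group for 7 of the 9 exporters. Calls of exporters that change without this animal are given both ways. Markers of the tissue were read as summed intensities. The sum of 8 hepatocyte markers ran from 15397 to 27907 in SF Rapamycin, from 18556 to 22963 in SF Placebo, from 13444 to 15485 in AAF/PH and from 28495 to 33447 in Normal liver. These markers did not all move together. In AAF/PH against Normal liver 5 of the 8 were called lower, as were 12.5% of all genes. Apoc3 fell most, at 622 against 6150. The difference was above 0 for 2 markers, Cps1 (2156 against 2034) and Tat (956 against 514), neither of them called. The sum of 8 cholangiocyte and oval cell markers ran from 211 to 394 in SF Rapamycin, from 379 to 617 in SF Placebo, from 445 to 660 in AAF/PH and from 131 to 156 in Normal liver. Cd24 and Krt19 were the brightest of the 8 in SF Placebo. Against AAF/PH, 2 of the 8 were called lower in SF Placebo, 0 were called higher, and 3 had a difference above 0. Of all genes, 1.57% were called lower and 2.62% higher in this comparison. The markers called lower were Prom1, at 10.7 against 27.4, and Tspan8, at 10.6 against 25.2. The AAF/PH tissue therefore held hepatocyte transcripts as well as those of oval cells.

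Exporters differ in the face of the hepatocyte on which they sit. P-glycoprotein, encoded in rodents by Abcb1a and Abcb1b, and the proteins of Abcb4, Abcc2 and Abcg2 lie in the canalicular membrane and pump into bile. The proteins of Abcc3, Abcc4 and Abcc6 lie in the basolateral membrane and pump towards the blood. Abcc1 is best known from other tissues and from dividing or drug-resistant cells. Healthy hepatocytes carry the canalicular pumps of bile formation. The basolateral pumps of Abcc3 and Abcc4 are known to be induced when bile flow is blocked or electrophiles accumulate.

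The genes of the P-glycoprotein branch are neighbours in the rat genome. On chromosome 4 of assembly GRCr8, Abcb4 spans chr4:26106895-26164440, Abcb1b spans chr4:26197706-26280156 and Abcb1a spans chr4:26312403-26488456. Abcg2 lies on the same chromosome at chr4:89006056-89132915. Abcc2 spans chr1:252613875-252672459 and Abcc6 spans chr1:105583681-105637895. Abcc1 spans chr10:1022041-1162431 and Abcc3 spans chr10:79793571-79839528. Abcc4 spans chr15:101948387-102182912. These are RefSeq gene bounds, introns included.

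The 250 bases before the annotated start are printed for 4 exporters whose patterns over the groups differed most plainly. They are Abcb1b, which was highest in AAF/PH, its neighbour Abcb1a, which was not called in any comparison, Abcc2, which was lowest in AAF/PH, and Abcc4, which was highest in foci. Sequences are from RefSeq on GRCr8, 5′ to 3′ on the strand of the gene. Capitals mark the letters of the CCAAT box (CCAAT), the GC box (GGGCGG) and the AP-1 motif (TGANTCA), on either strand. The windows are chr4:26280030-26280279 on the minus strand for Abcb1b, chr4:26397649-26397898 on the minus strand for Abcb1a, chr1:252613625-252613874 on the plus strand for Abcc2 and chr15:102181365-102181614 on the minus strand for Abcc4. For Abcb1b, Abcb1a and Abcc4 the gene bounds reach upstream of the start used here, so that other starts exist.
Abcb1b: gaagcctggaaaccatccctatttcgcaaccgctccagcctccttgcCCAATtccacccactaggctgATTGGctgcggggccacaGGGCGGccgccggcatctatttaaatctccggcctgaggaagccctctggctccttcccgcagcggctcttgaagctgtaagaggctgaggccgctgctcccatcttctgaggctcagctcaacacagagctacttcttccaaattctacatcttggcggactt
Abcb1a: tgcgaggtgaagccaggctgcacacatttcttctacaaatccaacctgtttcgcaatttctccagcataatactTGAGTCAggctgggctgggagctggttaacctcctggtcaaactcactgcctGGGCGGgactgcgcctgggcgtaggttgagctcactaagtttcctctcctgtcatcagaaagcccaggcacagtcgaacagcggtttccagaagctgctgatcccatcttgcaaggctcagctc
Abcc2: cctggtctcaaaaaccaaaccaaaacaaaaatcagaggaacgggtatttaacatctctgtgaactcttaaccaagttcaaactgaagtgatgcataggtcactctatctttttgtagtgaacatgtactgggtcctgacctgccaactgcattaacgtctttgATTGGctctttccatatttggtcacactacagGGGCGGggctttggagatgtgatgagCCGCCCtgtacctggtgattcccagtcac
Abcc4: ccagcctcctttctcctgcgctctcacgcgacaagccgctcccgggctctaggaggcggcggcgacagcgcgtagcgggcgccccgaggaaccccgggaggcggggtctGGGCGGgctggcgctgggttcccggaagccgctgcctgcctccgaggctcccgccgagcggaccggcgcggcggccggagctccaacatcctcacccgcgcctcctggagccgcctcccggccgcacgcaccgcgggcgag

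The paralogs Abcb1b and Abcb1a shared only 3 runs of 8 or more bases in these windows, the longest being AGGCTCAGCTC with 11 bases. Abcb1b had a CCAAT box on the same strand 203 bases before the start and another on the other strand 182 bases before it, while Abcb1a had none and carried an AP-1 motif 176 bases before its start. A GC box was found in 8 of the 8 exporter promoters in the table, against 32.4% of 27457 rat promoters of the same length. The GC content of the exporter promoters ran from 45.2% to 77.6%, against a median of 52.0% over all promoters. The CCAAT box was found in Abcb1b, Abcc2 and Abcc6 (34.3% of all promoters), the AP-1 motif in Abcb1a (6.36%) and the core of the aryl hydrocarbon receptor motif, GCGTG, in Abcb4, Abcc1 and Abcc4 (27.2%). The core of the antioxidant response element, TGACNNNGC, was in none of the 8 windows (10.2% of all promoters), and neither was the decamer that p53 binds as a pair (6.56%). No marked motif overlapped another in the printed windows. These are matches of letters only. Abcc3 has no entry in the promoter table.

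Levels are given as array intensities, on a linear scale, and differences as log2 of the first group named over the second with the standard error of the fit. The test was limma over all genes with Benjamini-Hochberg adjustment, and calls were made at adjusted p-values under 0.05. Intensities of different probe sets depend on their probes. Apart from the marker sums, the brightness of genes and markers and the percentile of Abcg2, they were not compared with each other.

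**Figure D1:**
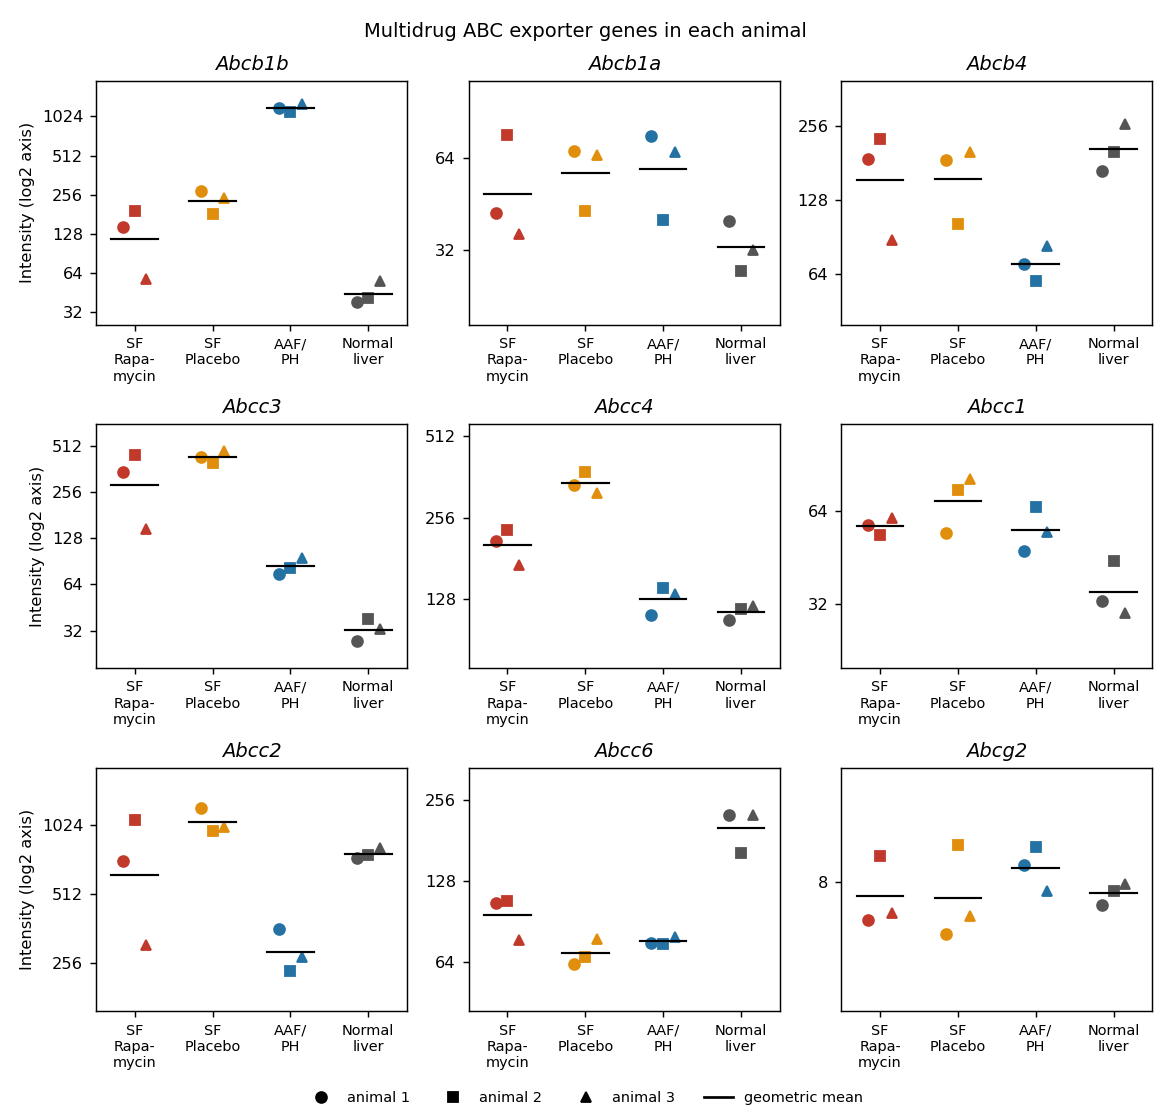
Intensity of each exporter in each animal on a log2 axis whose range differs between panels; symbols are animals 1 to 3 of a group and the bar is the geometric mean. Abcb1b was above 1100 in the 3 AAF/PH animals and under 300 in every other animal, and Abcc3 was above 140 in the 6 focus animals and under 100 in the others.

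Abcb1b, which encodes a form of P-glycoprotein, had the widest range of the 9 exporters over the animals. Its intensity was 143, 191 and 57.1 in SF Rapamycin, 273, 181 and 239 in SF Placebo, 1184, 1104 and 1280.2 in AAF/PH, and 38.2, 40.8 and 55.1 in Normal liver. The AAF/PH animals lay together at the top, the foci lay between them and Normal liver, and no AAF/PH, SF Placebo or SF Rapamycin animal overlapped the Normal liver animals. For SF Rapamycin animal 3 this rests on the average of its arrays. Those of the same RNA read 52.8 and 53.2, below Normal liver animal 3 at 55.1, and the second capture read 66.2. The standard deviation over the 12 animals was 1.86 on the log2 scale, which put Abcb1b at percentile 99.8 of all genes. Against Normal liver, Abcb1b rose in AAF/PH by 4.75 ± 0.34 on the log2 scale, 26.9-fold, with an adjusted p of 5.06e-07 in limma. In SF Placebo it rose by 2.37 ± 0.34, 5.16-fold (limma, adjusted p = 0.00051). In SF Rapamycin it rose by 1.40 ± 0.34, 2.63-fold (limma, adjusted p = 0.0247). That last result was no longer called when Normal liver animal 1, 2 or 3 was left out (adjusted p = 0.131, 0.0623 and 0.0587 in limma) or SF Rapamycin animal 1 (0.066). The same held with arrays centred on their medians (0.0814), with 16 added to the intensities before log2 (0.0597) and with only these groups in the fit (0.137). Both kinds of foci were below AAF/PH, SF Rapamycin by 10.2-fold and SF Placebo by 5.21-fold, with adjusted p-values of 5.44e-05 and 0.000755 in limma.

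Abcb1a, the other P-glycoprotein gene of the rat, had smaller differences. Its intensity was 42.4, 76.4 and 36.2 in SF Rapamycin, 67.4, 42.9 and 65.6 in SF Placebo, 75.7, 40.1 and 67.3 in AAF/PH, and 39.9, 27.4 and 32.1 in Normal liver. SF Placebo and AAF/PH animals lay above all Normal liver animals, by a narrow margin, and SF Rapamycin animals overlapped them. The log2 difference from Normal liver was 0.58 ± 0.30 in SF Rapamycin, 0.81 ± 0.30 in SF Placebo and 0.85 ± 0.30 in AAF/PH, with adjusted p-values of 0.228, 0.132 and 0.0622 in limma, none of them called. The AAF/PH difference passed without AAF/PH animal 2 (adjusted p = 0.0306 in limma) and also without SF Rapamycin animal 2 or 3 (0.0286 and 0.0161), and the SF Placebo difference passed without SF Rapamycin animal 3 (0.0356). With only the groups compared in the fit, both passed (0.00852 for AAF/PH and 0.0118 for SF Placebo), as they did with array quality weights (0.00253 and 0.0139). The AAF/PH difference also passed with a trended robust fit (0.046) and with the second capture of SF Rapamycin animal 3 alone (0.0464).

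The balance between the paralogs was compared within each animal, as log2 of Abcb1b minus log2 of Abcb1a. Its size depends on both probe sets, so only its movement between groups is read. The value was 1.76, 1.32 and 0.66 in SF Rapamycin, 2.02, 2.07 and 1.87 in SF Placebo, 3.97, 4.78 and 4.25 in AAF/PH, and -0.063, 0.57 and 0.78 in Normal liver. The animals of AAF/PH, SF Placebo and Normal liver formed 3 ranges apart from each other, and SF Rapamycin overlapped Normal liver through animal 3. Means were 1.25 ± 0.55 in SF Rapamycin, 1.99 ± 0.11 in SF Placebo, 4.33 ± 0.41 in AAF/PH and 0.43 ± 0.44 in Normal liver (SD, n = 3 each). Over the 4 groups an exact permutation test of the F statistic gave p = 0.000195, with 72 of 369600 assignments reaching the observed value. For the 6 pairs of groups, 3 animals against 3 cannot go below 0.1 in a two-sided exact permutation test. That smallest value was reached by 5 pairs (0.12 after Benjamini-Hochberg adjustment over the 6) and SF Rapamycin against Normal liver gave 0.2. How far probes of one paralog also catch the other was not tested.

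**Figure D2:**
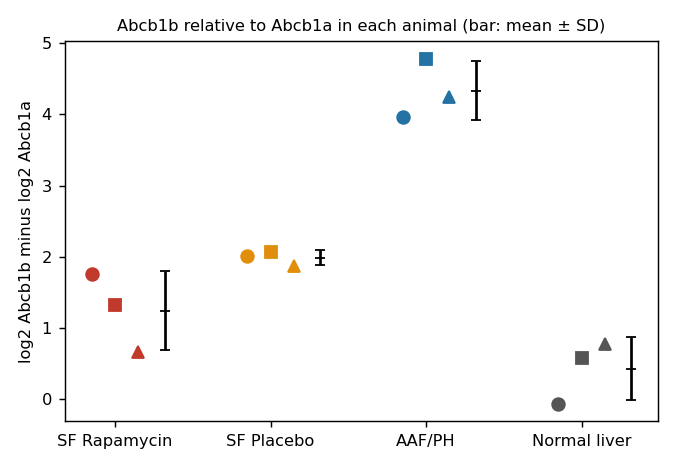
Log2 intensity of Abcb1b minus log2 intensity of Abcb1a in each animal (circles, squares and triangles are animals 1, 2 and 3), with the mean ± SD of each group beside the points. AAF/PH animals lie between 3.97 and 4.78, SF Placebo between 1.87 and 2.07, and SF Rapamycin between 0.66 and 1.76, against -0.063 to 0.78 in Normal liver.

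Abcb4, the neighbour of these genes, encodes the canalicular floppase that delivers phosphatidylcholine to bile. Its intensity was 187, 226 and 87.5 in SF Rapamycin, 186, 102 and 199.7 in SF Placebo, 70.2, 59.7 and 83.5 in AAF/PH, and 169, 201 and 260.05 in Normal liver. The AAF/PH animals were the lowest and overlapped no other group, while the foci overlapped Normal liver. The gap between SF Rapamycin and AAF/PH rests on the average of SF Rapamycin animal 3. Its arrays of the same RNA read 85.3 and 72.8, the latter within the AAF/PH range, and the second capture read 108. Abcb4 fell by 1.55 ± 0.33 on the log2 scale in AAF/PH against Normal liver, 2.93-fold (limma, adjusted p = 0.00429). The foci differed from Normal liver by -0.42 ± 0.33 in SF Rapamycin and -0.41 ± 0.33 in SF Placebo (limma, adjusted p = 0.399 and 0.543). With array quality weights the SF Placebo difference was -0.61 and was called (limma, adjusted p = 0.0327). Against AAF/PH the difference was 1.13 ± 0.33 in SF Rapamycin and 1.15 ± 0.33 in SF Placebo (limma, adjusted p = 0.079 and 0.0707). Without SF Rapamycin animal 3, both of these passed (0.000357 for SF Rapamycin and 0.00226 for SF Placebo), as did the SF Placebo difference without SF Placebo animal 2 (0.0378) or SF Rapamycin animal 2 (0.0414). Both also passed with quantile normalization (0.0103 for SF Rapamycin and 0.0175 for SF Placebo), with the second capture of animal 3 alone (0.0216 and 0.0339) and with array quality weights (0.00011 and 0.00681), and the SF Placebo difference with only the groups compared in the fit (0.0055). Abcb1b and Abcb4, which lie next to each other, thus had opposite called differences in AAF/PH liver.

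Abcc2 encodes the canalicular pump for glutathione, glucuronide and bilirubin conjugates. Its intensity was 717, 1074 and 309 in SF Rapamycin, 1217, 964 and 1009 in SF Placebo, 363, 238 and 272 in AAF/PH, and 736, 762 and 813 in Normal liver. The AAF/PH animals all lay below Normal liver, the SF Placebo animals all lay above it, and SF Rapamycin reached into the ranges of both. Abcc2 fell by 1.43 ± 0.33 on the log2 scale in AAF/PH against Normal liver, 2.69-fold (limma, adjusted p = 0.00758). The difference from Normal liver was -0.31 ± 0.33 in SF Rapamycin and 0.46 ± 0.33 in SF Placebo (limma, adjusted p = 0.521 and 0.486). SF Placebo was higher than AAF/PH by 1.89 ± 0.33, 3.70-fold (limma, adjusted p = 0.00377). SF Rapamycin differed from AAF/PH by 1.11 ± 0.33 (limma, adjusted p = 0.0885), and without SF Rapamycin animal 3 by 1.62 with an adjusted p of 2.67e-05. It also passed with quantile normalization (0.011), with the second capture of animal 3 alone (0.0436) and with array quality weights (2.97e-05). Without that animal the difference of SF Rapamycin from Normal liver was 0.19 and so of the other sign (adjusted p = 0.716).

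Abcg2, the breast cancer resistance protein, was dim. Its mean lay at percentile 11.2 of all genes, below the array medians of 19.8 to 25.4. Its intensity was 6.57, 9.17 and 6.81 in SF Rapamycin, 6.11, 9.72 and 6.70 in SF Placebo, 8.77, 9.60 and 7.62 in AAF/PH, and 7.11, 7.65 and 7.92 in Normal liver. All groups overlapped and no comparison was called, with log2 differences from Normal liver of -0.0235, -0.038 and 0.19, each ± 0.20, in SF Rapamycin, SF Placebo and AAF/PH. Their 95% intervals ran from -0.46 to 0.41, from -0.47 to 0.40 and from -0.24 to 0.63. A probe set this close to the floor of the array can hide a change, and no detection call was used here.

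Abcc3, a basolateral pump for glucuronides and bile acids, had the largest difference of the 9 exporters between foci and Normal liver. Its intensity was 349, 451 and 148 in SF Rapamycin, 436, 398 and 476 in SF Placebo, 75.2, 82.5 and 96.0 in AAF/PH, and 27.4, 38.1 and 32.8 in Normal liver. Every animal with foci lay above every AAF/PH animal, and every AAF/PH animal lay above every Normal liver animal. Against Normal liver, Abcc3 rose by 3.14 ± 0.31 on the log2 scale in SF Rapamycin (8.79-fold), 3.75 ± 0.31 in SF Placebo (13.4-fold) and 1.37 ± 0.31 in AAF/PH (2.59-fold). The adjusted p-values were 5.66e-05, 5.66e-06 and 0.00623 in limma. Against AAF/PH it was 3.39-fold higher in SF Rapamycin and 5.18-fold higher in SF Placebo, with adjusted p-values of 0.00374 and 0.000395 in limma. These calls held when any single animal was left out, and the SF Rapamycin call against AAF/PH was lost with only these groups in the fit (0.0567).

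Abcc4 encodes a basolateral pump for cyclic nucleotides, sulfated steroids and bile acids. Its intensity was 210.4, 231 and 171 in SF Rapamycin, 338, 378 and 316 in SF Placebo, 112, 141 and 134 in AAF/PH, and 107, 118 and 121 in Normal liver. The SF Placebo animals were the highest, the SF Rapamycin animals came next with no overlap, and AAF/PH and Normal liver overlapped below them. Against Normal liver, Abcc4 rose by 0.82 ± 0.17 on the log2 scale in SF Rapamycin (1.76-fold) and by 1.57 ± 0.17 in SF Placebo (2.98-fold), with adjusted p-values of 0.013 and 5.65e-05 in limma. The difference in AAF/PH was 0.15 ± 0.17 (limma, adjusted p = 0.536). SF Rapamycin was no longer called with Normal liver animal 1 left out (adjusted p = 0.084 in limma) or animal 3 (0.053), with arrays centred on their medians (0.0529), with a trended robust fit (0.0656) or with only these groups in the fit (0.086). SF Placebo was 2.68-fold higher than AAF/PH (limma, adjusted p = 0.000196). SF Rapamycin was 1.58-fold higher than AAF/PH (limma, adjusted p = 0.0447), but this call was lost under 19 of 25 alternatives, among them the removal of each animal except SF Rapamycin animal 3. The 3 probe sets of Abcc4 correlated with each other at r from 0.88 to 0.96 over the 12 animals.

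Abcc1, the ubiquitous exporter of glutathione conjugates, was called higher in SF Placebo and AAF/PH than in Normal liver, by smaller amounts. Its intensity was 57.6, 53.3 and 60.7 in SF Rapamycin, 54.0, 74.8 and 81.1 in SF Placebo, 47.4, 65.8 and 54.4 in AAF/PH, and 32.6, 44.0 and 29.7 in Normal liver. No animal of the treated groups overlapped Normal liver, and the treated groups overlapped each other. The log2 difference from Normal liver was 0.71 ± 0.21 in SF Rapamycin, 0.98 ± 0.21 in SF Placebo and 0.67 ± 0.21 in AAF/PH, with adjusted p-values of 0.0558, 0.00781 and 0.0358 in limma. The SF Rapamycin difference was not called. Leaving out Normal liver animal 3 ended the SF Placebo call (adjusted p = 0.0542 in limma). The AAF/PH call was lost without Normal liver animal 1 or 3 (0.132 and 0.152) and without AAF/PH animal 2 or 3 (0.151 and 0.0742), and with arrays centred on their medians (0.123), while SF Rapamycin passed without Normal liver animal 2 (0.0336) or SF Rapamycin animal 2 (0.0469), with a filter on dim genes (0.0472) and with array quality weights (0.000316). With all probe sets fitted the AAF/PH call was lost as well (0.0503).

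Abcc6, a basolateral protein of hepatocytes needed for their release of ATP and, in humans, to prevent ectopic calcification, was called lower in all treated groups. Its intensity was 106, 107 and 77.3 in SF Rapamycin, 63.1, 66.8 and 77.5 in SF Placebo, 75.5, 74.6 and 79.4 in AAF/PH, and 224, 163 and 224 in Normal liver. Every Normal liver animal lay above every treated animal, and the treated groups overlapped each other. Against Normal liver, Abcc6 fell by 1.07 ± 0.19 on the log2 scale in SF Rapamycin, by 1.55 ± 0.19 in SF Placebo and by 1.40 ± 0.19 in AAF/PH. These were 2.10-fold, 2.92-fold and 2.63-fold lower, with adjusted p-values of 0.00516, 0.000143 and 0.000136 in limma. With only SF Rapamycin and Normal liver in the fit, the adjusted p of the SF Rapamycin difference was 0.0586. Foci and AAF/PH were not called apart (limma, adjusted p = 0.563 for SF Rapamycin and 0.783 for SF Placebo). With array quality weights SF Rapamycin was called higher than AAF/PH, by 0.47 (limma, adjusted p = 0.0248).

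**Figure D3:**
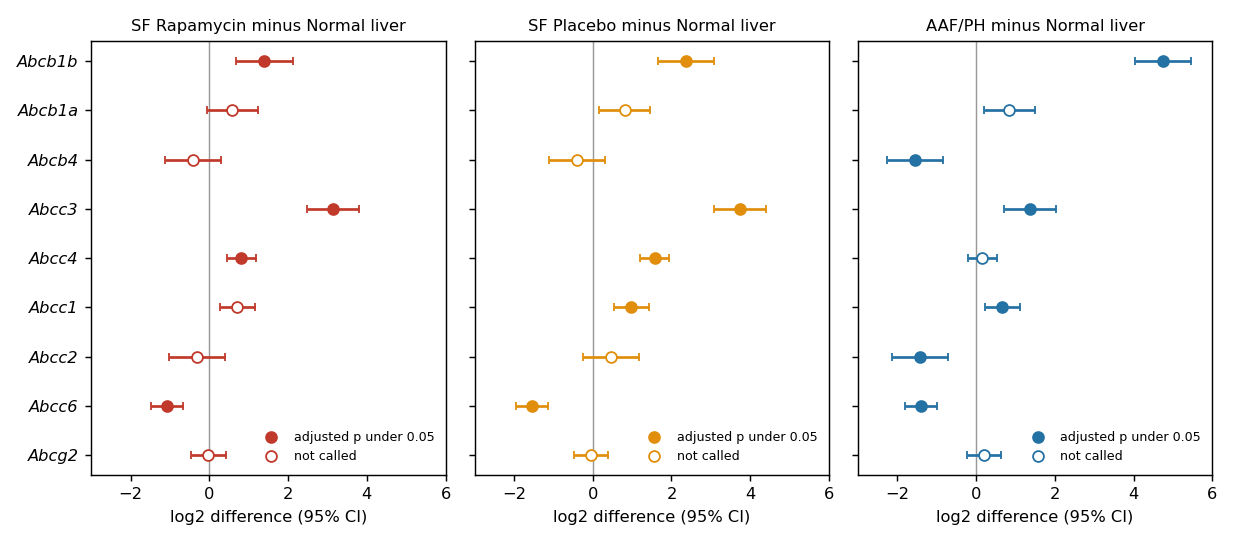
Log2 difference of each exporter from Normal liver with its 95% interval from the fit; filled points have an adjusted p under 0.05 over all genes. Abcb1b reaches 4.75 in AAF/PH and Abcc3 reaches 3.75 in SF Placebo, while Abcc6 lies below 0 in all 3 panels and Abcb4 and Abcc2 are called below 0 in AAF/PH.

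Counted over the 9 exporters, SF Rapamycin against Normal liver had 3 called higher (Abcb1b, Abcc3 and Abcc4) and 1 called lower (Abcc6), where 6.53% of all genes were called, 1.6% higher and 4.93% lower. SF Placebo against Normal liver had 4 higher (Abcc1 in addition) and 1 lower (Abcc6), where 8.22% of all genes were called, 2.84% higher and 5.38% lower. AAF/PH against Normal liver had 3 higher (Abcb1b, Abcc1 and Abcc3) and 3 lower (Abcb4, Abcc2 and Abcc6), where 20% of all genes were called, 7.54% higher and 12.5% lower. These 3 comparisons share the Normal liver animals. The animals of the groups did not overlap for 5 of the 9 exporters in SF Rapamycin (29.7% of all genes), 7 in SF Placebo (30.5%) and 7 in AAF/PH (49.6%). Abcb1b is among the 5 in SF Rapamycin with the arrays of animal 3 averaged, although its arrays of the same RNA lay within the Normal liver range. The median log2 difference of the exporters was 0.58 in SF Rapamycin, 0.81 in SF Placebo and 0.19 in AAF/PH, against 0.068, 0.039 and 0.12 over all genes. The 34 other ABC genes gave 0 higher and 4 lower in SF Rapamycin, 1 and 4 in SF Placebo and 2 and 5 in AAF/PH, with medians of 0.056, 0.0155 and 0.027. Those called higher were Abcc5 in SF Placebo, and Abcc5 and Abcc9 in AAF/PH. Abcc5, of the ABCC subfamily, differed by 0.63, 0.89 and 1.07 in SF Rapamycin, SF Placebo and AAF/PH, each ± 0.19 (limma, adjusted p = 0.0636, 0.00885 and 0.00134). Abcb11, the canalicular bile salt export pump, fell by 1.18 ± 0.31, 1.21 ± 0.31 and 2.04 ± 0.31 on the log2 scale in these comparisons (limma, adjusted p = 0.035, 0.0236 and 0.000321).

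Against AAF/PH, SF Rapamycin had 2 exporters called higher (Abcc3 and Abcc4) and 1 lower (Abcb1b), where 4.01% of all genes were called, 2.14% higher and 1.87% lower. SF Placebo had 3 higher (Abcc2, Abcc3 and Abcc4) and 1 lower (Abcb1b), where 4.19% of all genes were called, 2.62% higher and 1.57% lower. The animals of the groups did not overlap for 4 of the 9 exporters in SF Rapamycin (13.6% of all genes) and 5 in SF Placebo (25.7%). Abcb4 is among the 4 in SF Rapamycin with the arrays of animal 3 averaged, although 1 of these arrays lay within the AAF/PH range. Both comparisons share the AAF/PH animals. Median log2 differences of the exporters were 0.33 and 0.32, against -0.013 and -0.053 over all genes.

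The comparison of SF Rapamycin with SF Placebo addresses whether the pellet left a trace in foci that persisted to day 70. In limma 0 of the 9 exporters were called, and 0% of all genes were called at this threshold. At an unadjusted p under 0.05 there were 483 of 14497 genes and 4 exporters, with log2 differences of -0.76 ± 0.17 for Abcc4, -0.97 ± 0.34 for Abcb1b, 0.48 ± 0.19 for Abcc6 and -0.77 ± 0.33 for Abcc2. Each had an adjusted p of 0.985 in limma. Only Abcc4 had no overlap between these groups among the 9 exporters, where 6.04% of all genes had none. Its 95% interval ran from -1.13 to -0.39 on the log2 scale. For 7 of the 9 exporters the difference was below 0, with a median of -0.27 against 0.0105 over all genes. SF Rapamycin animal 3, the lowest of its group for 7 exporters, moves with this. Without it the difference was -0.46 for Abcb1b, -0.27 for Abcc2, -0.13 for Abcc3 and -0.014 for Abcb1a, against -0.97, -0.77, -0.61 and -0.23 with it. The difference of Abcb4 was 0.40 without it (adjusted p = 0.982 in limma), against -0.013 with it. Abcc4 was at -0.64 without it. When arrays were weighted by quality, which gave this animal a weight of 0.112, Abcc4 was called lower (-0.71, adjusted p = 0.00859 in limma) and Abcc6 higher (0.67, adjusted p = 0.0139). The same weighting called 330 of all 14497 genes in this comparison.

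For Abcc3, Abcc2 and Abcb1b, the arrays of SF Rapamycin animal 3 differed less from each other than the animal did from the rest of its group. Abcc3 had an intensity of 123 and 137 on the arrays of the same RNA and 191 on that of the second capture, against 349 and 451 in the other SF Rapamycin animals. Abcc2 gave 274, 320 and 336 on these arrays, against 717 and 1074 in the other animals. Abcb1b gave 52.8, 53.2 and 66.2, against 143 and 191. For these 3 genes, all 3 arrays lay below both other animals. Abcc1 was the exporter for which this animal was the highest of its group, with 68.6 and 61.7 on the arrays of the same RNA and 52.8 on that of the second capture, which lay below both other animals at 57.6 and 53.3. Abcb1a gave 33.5, 33.3 and 42.6, the last of them above animal 1 at 42.4.

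For each exporter, the genes whose log2 intensity followed it most closely over the 12 animals were listed with Pearson's r. The points share the 4 group means, so these are descriptions. Abcc3 ran with Akr1b8 (r = 0.99), Ggt1 (0.99) and Akr7a3 (0.98), of which Akr1b8 and Akr7a3 are aldo-keto reductases that clear reactive carbonyls and Ggt1 is the gamma-glutamyl transferase long used as a marker of foci. Abcc4 ran with Defb1 (0.96), a defensin, Aldh3a1 (0.95), an aldehyde dehydrogenase, and Nqo1 (0.95), a quinone reductase. Abcb1b ran with Dkc1 (0.98), the pseudouridine synthase dyskerin, Vasp (0.97), an actin regulator, and Tnfrsf12a (0.97), the TWEAK receptor. Abcb4 ran with Ugt2a3 (0.96), a glucuronosyltransferase, Stradb (0.95) and Scarb1 (0.94), the HDL receptor. Abcc2 ran with Tlcd4 (0.98), Pebp1 (0.97) and Ugt2b35 (0.97). Abcc6 ran with Lrp5 (0.99), a Wnt co-receptor, Nags (0.98), the enzyme that makes the activator of the urea cycle, and Itih3 (0.98), a plasma protein. Abcc1 ran with Ttl (0.90), Jchain (0.89) and Fosl2 (0.89), and Abcb1a with Plscr4 (0.92), Bex4 (0.91) and Anxa5 (0.88). Abcg2 had the weakest neighbours, Cog2 (0.82), Ppm1f (0.81) and Sprtn (0.79). Between the exporters, r was 0.92 for Abcc3 with Abcc4, 0.84 for Abcb4 with Abcc2 and 0.67 for Abcb1a with Abcb1b. Abcc6 went against Abcc1 at r = -0.85. After group means were taken out, Abcb1b correlated with Abcb4 at 0.93, with Abcc2 at 0.91 and with Abcc3 at 0.90, and SF Rapamycin animal 3 was the lowest of its group in these 4 genes.

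Genes known to respond with exporters were counted from lists. The share of all genes called against Normal liver was 6.53% in SF Rapamycin, 8.22% in SF Placebo and 20% in AAF/PH. NRF2 is the transcription factor that switches on defence against electrophiles. Of 14 measured NRF2 targets, 10 rose in SF Rapamycin, 11 rose in SF Placebo and 2 rose and 2 fell in AAF/PH, each against Normal liver. Their median log2 differences were 1.37, 2.12 and -0.14. Slc7a11, the cystine importer, averaged 78.6 in SF Rapamycin, 244 in SF Placebo, 9.29 in AAF/PH and 7.07 in Normal liver. Nqo1 averaged 219, 529, 25.8 and 28.6 in the same groups, so that for both genes the foci were above AAF/PH and Normal liver. In AAF/PH, Gclm, a subunit of the enzyme that starts glutathione synthesis, fell by 1.81 ± 0.39 on the log2 scale (limma, adjusted p = 0.0044), although it rose in SF Rapamycin by 1.73 ± 0.39 (0.0166) and in SF Placebo by 2.57 ± 0.39 (0.000769). Between SF Rapamycin and SF Placebo, 0 of the 14 were called in limma and 5 had an unadjusted p under 0.05, as did 483 of all 14497 genes, with a median of -0.67 over the 14.

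The factor p53 responds to DNA damage. Of 12 measured targets, 9 rose in AAF/PH, and 0 were called in SF Rapamycin or SF Placebo, each against Normal liver in limma, where 3 and 6 had an unadjusted p under 0.05. Over all 14497 genes, 3855 in SF Rapamycin and 2958 in SF Placebo did. The medians were 0.083 in SF Rapamycin, 0.23 in SF Placebo and 1.17 in AAF/PH. Cdkn1a, the p21 inhibitor of the cell cycle, averaged 119 in SF Rapamycin, 124 in SF Placebo, 740.1 in AAF/PH and 138 in Normal liver. Mdm2, which degrades p53, averaged 53.7 in SF Rapamycin, 60.4 in SF Placebo, 188 in AAF/PH and 45.1 in Normal liver. Against AAF/PH, 6 of the 12 fell in SF Rapamycin and 6 fell in SF Placebo, where 1.87% and 1.57% of all genes were called lower.

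PXR and CAR are receptors that sense foreign compounds. Of 11 measured targets, 0 rose and 5 fell in SF Rapamycin, 2 rose and 5 fell in SF Placebo, and 2 rose and 7 fell in AAF/PH, against Normal liver. Cyp3a9, a cytochrome P450, averaged 23.9 in SF Rapamycin, 20.4 in SF Placebo and 20.4 in AAF/PH, against 165 in Normal liver. Of 6 measured targets of the aryl hydrocarbon receptor, 2 rose and 1 fell in each comparison with Normal liver, but the members differed. Aldh3a1 and Nqo1 rose in foci, while Cyp1b1 and Ahrr rose in AAF/PH. Nqo1 is also counted among the NRF2 targets above. Cyp1a2 fell in all of them, by 2.05 in SF Rapamycin, 2.52 in SF Placebo and 1.45 in AAF/PH, each ± 0.24 on the log2 scale.

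Regulators of exporter genes were measured at the transcript level for 12 genes. In AAF/PH 8 fell and 0 rose, in SF Placebo 3 fell, and in SF Rapamycin 3 fell and 1 rose. Nr1h4, which encodes the bile acid receptor FXR, fell in all of them, with log2 differences of -1.24 in SF Rapamycin, -1.55 in SF Placebo and -1.92 in AAF/PH, each ± 0.29 (limma, adjusted p = 0.02, 0.00346 and 0.000302). Nr0b2, a repressor that FXR induces, averaged 146 in SF Rapamycin, 112 in SF Placebo, 17.6 in AAF/PH and 48.9 in Normal liver. Its rise in SF Rapamycin and its fall in AAF/PH against Normal liver were called (limma, adjusted p = 0.0273 and 0.0155), while SF Placebo was not (0.0805). Nfe2l2, which encodes NRF2 itself, differed from Normal liver by -1.11, -0.43 and -0.61 in SF Rapamycin, SF Placebo and AAF/PH, each ± 0.39, and was not called.

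The other transporters of the hepatocyte, 12 of which were measured, fell where they changed. The count was 6 in SF Rapamycin, 6 in SF Placebo and 7 in AAF/PH against Normal liver, and 0 rose. Slc10a1, the sodium-dependent importer of bile acids, averaged 538 in SF Rapamycin, 382 in SF Placebo and 38.7 in AAF/PH, against 1256 in Normal liver. Slco1a4, an importer of organic anions, averaged 69.8 in SF Rapamycin, 60.6 in SF Placebo and 28.2 in AAF/PH, against 354 in Normal liver. Of 14 conjugating enzymes, which make the substrates of the ABCC pumps, 4 rose and 1 fell in SF Rapamycin, 5 rose and 2 fell in SF Placebo, and 1 rose and 6 fell in AAF/PH. Gstp1 is among those that rose in foci, and the foci were selected on its protein. A list of apical scaffold proteins had 6 measured genes, and which cells expressed them here was not tested. Ezr (ezrin) rose by 1.12 ± 0.29 in SF Rapamycin, 1.65 ± 0.29 in SF Placebo and 1.68 ± 0.29 in AAF/PH (limma, adjusted p = 0.0363, 0.0027 and 0.0011). Pdzk1 fell by 0.83, 0.83 and 0.79, each ± 0.17 (0.0121, 0.00717 and 0.00511). Msn (moesin) rose in AAF/PH by 1.26 ± 0.22 (0.000919).

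**Figure D4:**
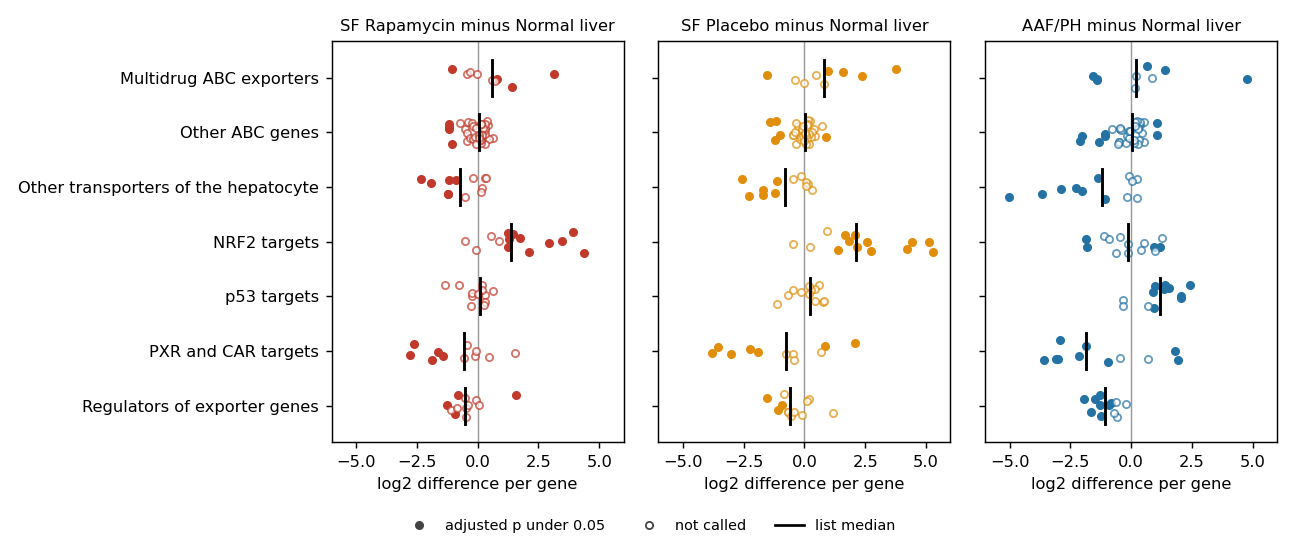
Log2 difference from Normal liver of each gene of the exporters and of 6 lists beside them; filled points have an adjusted p under 0.05 and the bar is the median of the list. NRF2 targets lie to the right in both kinds of foci (medians 1.37 and 2.12) and around 0 in AAF/PH (-0.14), p53 targets lie to the right in AAF/PH (1.17), and the exporters spread to both sides in each panel.

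Cell type markers also differed between the groups. Against Normal liver, 6.53% of all genes were called in SF Rapamycin, 8.22% in SF Placebo and 20% in AAF/PH. Of 8 cholangiocyte and oval cell markers, 2 rose in SF Rapamycin, 3 in SF Placebo and 7 in AAF/PH against Normal liver. Of 10 stellate cell and fibroblast markers, 0, 1 and 6 rose in the same comparisons, and their summed intensity ran from 589 to 836 in SF Rapamycin, from 786 to 1100.1 in SF Placebo and from 1768 to 4741 in AAF/PH, against 658 to 910 in Normal liver. Of 8 hepatocyte markers, 0, 4 and 5 fell. The sum of 8 endothelial markers, a cell type that also carries P-glycoprotein, ran from 331 to 533 in SF Rapamycin, from 437 to 595 in SF Placebo and from 455 to 656 in AAF/PH, against 670.5 to 716 in Normal liver. Of these 8 markers, 2 fell in SF Rapamycin and 1 in SF Placebo, and in AAF/PH 1 rose (Tie1, by 0.53 with an adjusted p of 0.0366 in limma) and 1 fell. Of 10 macrophage markers, 4 fell in SF Rapamycin, 2 fell in SF Placebo, and 2 rose and 1 fell in AAF/PH. No marker was listed at 0, since the lowest intensity on any array was 2.14. The part of these cell types in the differences of the exporters was not tested.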

How the data were processed

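The deposited table held array intensity values on a linear scale for 28826 probe sets on 14 arrays; per the submitters' processing notes, Partek 6.6 and RMA (robust multi-array average) were used by the authors, with settings not given in the sources used here. They were converted to log2 here, without a pseudocount. On that scale the 3 arrays of SF Rapamycin animal 3 were averaged. Probe sets were named from the platform annotation: 15209 had 1 symbol, 306 several and 13311 none. The highest-mean probe set was kept per gene, which left 14497 genes, and 14471 of them matched a GRCr8 table by Entrez identifier. No depth applies to arrays, and the number of animals limits the precision.

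A single limma 3.58.1 fit (R 4.3.3, lmFit and eBayes, two-sided, 8 residual and 6.38 prior degrees of freedom) held the means of 4 groups, p-values were adjusted by Benjamini-Hochberg over all genes, and the calculation was tested on simulated data. The ratio of Abcb1b to Abcb1a had exact permutation tests (Python 3.11.15, numpy 2.4.6). Tables and motif matches used pandas 2.3.3. P-values set the differences between groups against the spread between animals.

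The exporters and the lists were chosen with earlier results of these data known. The text names all exporters, the 3 genes of highest Pearson r with each over the 12 animals (microRNAs, pseudogenes, predicted genes and olfactory or vomeronasal receptors passed over), and up to 4 genes of smallest p from a list, of the following. Lists were hepatocyte transporters, regulators, targets of NRF2, PXR and CAR, the aryl hydrocarbon receptor and p53, conjugating enzymes, scaffold proteins and markers of 8 cell types. Some genes stand on several lists, so that the counts are not independent. Among them are Nqo1, Gclm (NRF2 targets and conjugating enzymes), Hnf4a (regulators and hepatocyte markers) and Abcb11 (hepatocyte transporters and other ABC genes). Nfe2l2 and the examples that show one gene in all groups were picked from the lists after their values were seen. So were Cps1 and Tat, named for their direction, and Cd24 and Krt19, named for their brightness. Of the marker lists not described elsewhere, lymphocyte markers (7 measured) gave 1, 0 and 1 higher in SF Rapamycin, SF Placebo and AAF/PH against Normal liver, neutrophil markers (6) gave 0, 0 and 1 higher, and erythroid markers (4) gave 2, 2 and 3 lower. Alternatives were normalization, a filter on dim genes, the choice of probe set, a pseudocount of 16, the treatment of animal 3, array weights, the model, a replicate block and leaving out each animal. Replicate numbers did not pair the animals: 7 of 18 pairs with the same number in different groups correlated above 0.1, and 1 of 12 animals matched its own number best.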

Additional observations from a re-analysis of the deposited data

How the results depend on the processing

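Of the counts of exporters called, and of the test of the ratio of Abcb1b to Abcb1a, 160 values under alternatives stayed within 1.5 times the first value or on its side of the threshold, and 9 did not. For SF Rapamycin against Normal liver the count of 4 became 2 with median centring and 1 with only the groups compared in the fit, and 2 to 5 when an animal was left out (2 without Normal liver animal 1 or 3). For SF Rapamycin against AAF/PH the count of 3 became 5 with the second laser capture of animal 3 alone, 6 with array quality weights, 1 with only the groups compared, and 2 to 5 when an animal was left out (5 without SF Rapamycin animal 3). For SF Rapamycin against SF Placebo the count of 0 became 2 with array quality weights, fitted gene by gene since the default method did not converge, and stayed 0 without each animal. The causes were not tested. The calls over all genes moved too. Against Normal liver SF Rapamycin had 947, with 868 under median centring, 210 with only the groups compared, and 224 and 284 without Normal liver animal 1 and 3. Against AAF/PH it had 581, with 761 for the second capture alone, 2961 with array quality weights, 204 with only the groups compared and 2058 without SF Rapamycin animal 3. Against SF Placebo it had 0, with 330 under array quality weights and 3 without SF Rapamycin animal 3. With the replicate number as a block the counts were 3 for SF Rapamycin, 5 for SF Placebo and 6 for AAF/PH against Normal liver, 2 and 4 for SF Rapamycin and SF Placebo against AAF/PH, and 0 between the foci. The block ended the calls of Abcb1b in SF Rapamycin against Normal liver (adjusted p = 0.055 in limma) and of Abcc4 in SF Rapamycin against AAF/PH (0.0794) and changed no other call of an exporter. The p of the ratio over 4 groups ran from 6.5e-05 to 0.000844 when an animal was left out. Of single exporters, 1240 values kept sign and call, 41 lost a call, 33 gained it and 30 changed sign. None of the sign changes was called in either setting. With median centring, which moves the all-gene median of 0.12 in AAF/PH against Normal liver to 0, they were Abcc4 (-0.0405) and Abcg2 (-0.0005) in AAF/PH against Normal liver, Abcb1a in SF Placebo against AAF/PH (0.051) and Abcg2 in SF Rapamycin against SF Placebo (-0.0505). With quantile normalization they were Abcc2 in SF Rapamycin (0.0454) and Abcg2 in AAF/PH (-0.0021) against Normal liver, and Abcb4 (0.0775) and Abcg2 (-0.0485) in SF Rapamycin against SF Placebo. With the first array of animal 3 alone Abcg2 gave -0.0245 between the foci. With its second capture alone Abcg2 gave 0.0218 against Normal liver, Abcc1 gave -0.0228 against AAF/PH and Abcb4 gave 0.088 against SF Placebo. With array quality weights Abcb4 gave 0.38 and Abcg2 gave -0.0713 between the foci. When an animal was left out, SF Rapamycin against Normal liver ran from -0.175 to 0.0652 for Abcg2 and from -0.71 to 0.19 for Abcc2, SF Placebo against Normal liver from -0.24 to 0.10 for Abcg2, SF Rapamycin against AAF/PH from -0.0675 to 0.17 for Abcc1, SF Placebo against AAF/PH from -0.31 to 0.18 for Abcb1a, and SF Rapamycin against SF Placebo from -0.32 to 0.40 for Abcb4 and from -0.14 to 0.22 for Abcg2. Signal over background limits Abcg2 most, with an intensity under 10 in every animal.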
